A study of Mus musculus with 102 samples.

Results

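Reactive astrocyte genes are genes that astrocytes switch on or raise after injury, inflammation and in old age. The group described here has 7 members, Gfap, Vim, Serpina3n, Cp, A2m, Osmr and S1pr3, taken by symbol from the brain table, in which each has 1 of the 51810 rows. A read in at least 1 brain library was present in 29006 rows, among them 6 of the 7 members, while Gfap was listed at 0 throughout. By its labels, the study sequenced RNA from brain and spleen of 45 male mice of 6 ages, with a BL6J strain code in the titles and the genotype WT. Brain libraries numbered 7 at 3 months, 9 at 5 months, 8 at 8 months, 9 at 14 months, 7 at 20 months and 5 at 26 months, and spleens came from the same mice. The groups compared are thus male WT mice of the 6 ages, with no treatment named. A further table on mTOR spleens was not used here.

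Astrocytes support neurons, clear glutamate and potassium and contact blood vessels with their end feet. When tissue is damaged or inflamed they enlarge and strengthen their cytoskeleton with the intermediate filaments GFAP and vimentin. They also secrete acute-phase proteins such as the serpin encoded by Serpina3n, and they respond to cytokines of the interleukin-6 family through receptors that signal by STAT3. Several of these genes are also active outside astrocytes, Vim in endothelial, meningeal and microglial cells and Cp in the liver.

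Brain libraries held 4072076 to 13655235 reads in genes (median 8002219), and 6 of the 45 held fewer than 5000000. The counts of replicate 1 and replicate 6 among the 5-month brains differed by less than read sampling noise, as did those of replicate 4 and replicate 7 among the 8-month brains. The libraries of such a pair were averaged to 1 sample, which left 43 samples, 8 of them at 5 months and 7 at 8 months. All levels below are normalized read counts, that is, reads divided by 1 factor for each library. They are given as mean ± SD over samples, and as levels they compare samples for 1 gene, not genes with each other. A gene is said to have risen or fallen where its adjusted p in limma was under 0.05 over the 15546 genes tested in brain.

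Gfap, the intermediate filament that defines reactive astrocytes, had no read in any of the 45 brain or 45 spleen libraries. In the GENCODE M21 annotation it lies on chromosome 11 from 102887336 to 102900912 on the minus strand (GRCm38), wholly inside the span of Gm26668, a long noncoding gene on the plus strand. Of its 4218 exon bases 100% fall inside that span and none inside an exon of Gm26668. Of 1246 protein-coding genes that lie wholly inside another gene, 1109 (89%) were listed at 0 in all brain libraries. Among genes overlapped in part, the share was 3.34% of 8829, and among genes with no other gene over them 13.9% of 11674. Genes abundant in brain were among those at 0 and wholly inside another gene, such as the neurofilament Nefl, the microglial receptor P2ry12 and the Purkinje cell gene Pcp2. How reads in overlapping genes were counted is not given in the sources used here, and its part in the zeros was not tested. No course of Gfap with age can be read from these zeros, and the results below rest on the other 6 members.

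**Figure D1:**
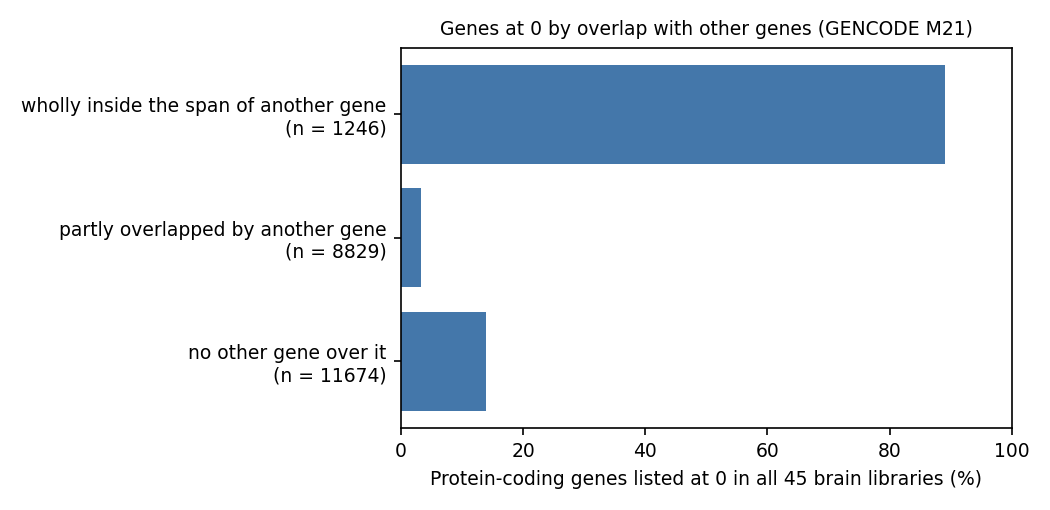
Share of protein-coding genes listed at 0 in all 45 brain libraries (x axis, percent), by how the gene lies relative to other genes in GENCODE M21 (y axis, n genes in each class). Genes wholly inside another gene, the class of Gfap, reach 89%, against 3.34% and 13.9% in the other classes.

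The other members lie less within other genes. Vim, Serpina3n, A2m and Osmr have no exon base inside another gene, Cp has 21.8% inside Hps3 and S1pr3 has 7.89% inside Gm32834. Each of the 6 had a normalized count of at least 10 in every 3-month sample, so none passed the filter on low values only through the old animals. The lowest 3-month values were 12.2 for A2m and 13.4 for Osmr.

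At 26 months 5 of the 6 measured members had risen against 3 months: Serpina3n, A2m, Osmr, Vim and Cp. Among all tested genes 0.572% were called higher at this age and 0.0901% lower, or 0.663% in either direction. S1pr3 did not pass. The median log2 fold change of the 6 members was 0.82, and that of all tested genes was -0.005. In 4 of the 6, Serpina3n, A2m, Cp and Osmr, every sample of 26 months lay above every sample of 3 months, which held for 0.823% of tested genes. The members were chosen with earlier results of these data known. The shares over all genes, here and below, are therefore a scale and no independent test of the group. In whole brain, more cells of a type and more RNA per cell cannot be told apart.

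**Figure D2:**
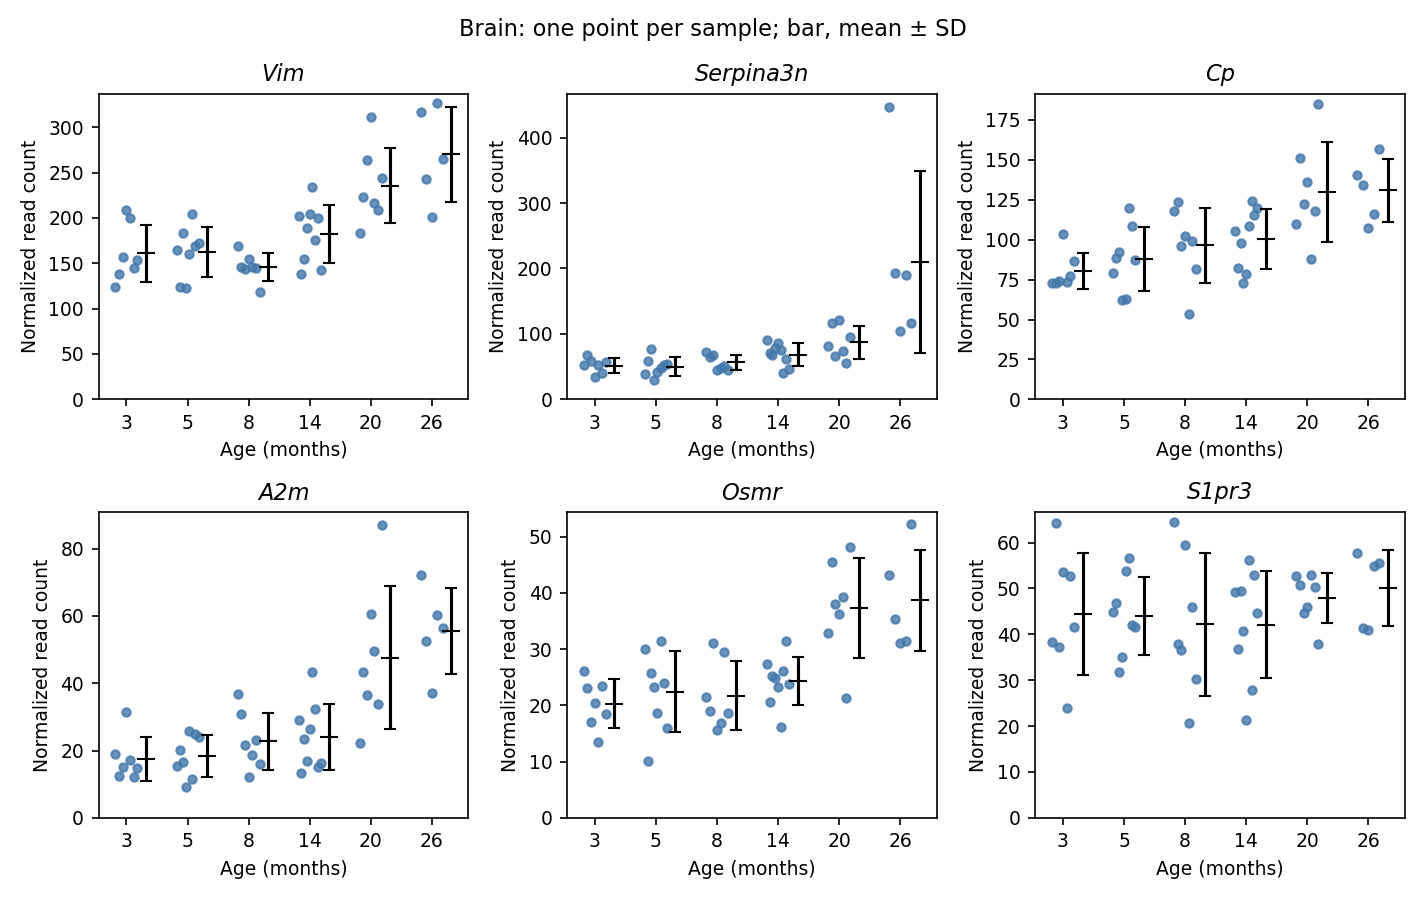
Normalized read counts (y axis) of the 6 measured genes in brain by age in months (x axis), 1 point per sample, with mean ± SD beside each age. The means of Vim, A2m and Osmr at 20 months are 236, 47.6 and 37.4 against 182, 24.1 and 24.3 at 14 months, Serpina3n spreads from 104 to 447 at 26 months, and the age means of S1pr3 lie between 42.1 and 50.1.

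Vim encodes vimentin, the filament that reactive astrocytes assemble together with GFAP. It lies on chromosome 2 from 13573927 to 13582826 on the plus strand (GENCODE M21, GRCm38). Its level was 161 ± 31.7 (n = 7) at 3 months, with values from 123 to 208 and a median of 154. At 26 months the 5 samples had 317, 243, 201, 327 and 265, a mean of 270 ± 52.4. Of these, 4 were above the highest sample of 3 months and replicate 3 was inside the young range. The log2 fold change was 0.75 (SE 0.14, limma adjusted p = 0.00171), or 1.68-fold. Intermediate ages had means of 163 ± 27.8 (n = 8) at 5 months, 146 ± 15.3 (n = 7) at 8 months, 182 ± 32.0 (n = 9) at 14 months and 236 ± 41.8 (n = 7) at 20 months. Vim had risen by 20 months as well, by log2 0.55 (SE 0.13, limma adjusted p = 0.0487), a call lost without replicate 1, 2, 3, 6 or 7 of 3 months. That call was also lost without libraries under 5000000 reads (limma adjusted p = 0.115) and with only the ages compared (limma adjusted p = 0.0651).

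Serpina3n encodes a secreted serine protease inhibitor of the acute phase. The gene lies on chromosome 12 from 104406729 to 104414329 on the plus strand, in a cluster of close copies among which reads can be assigned uncertainly. At 3 months its level was 51.7 ± 11.3 (n = 7), from 34.7 to 68.0 with a median of 52.1. The 5 samples of 26 months had 447, 193, 104, 190 and 117, a mean of 210 ± 138. All 5 exceeded every young sample, and replicate 1 stood far above the other 4. The log2 fold change was 1.83 (SE 0.24, limma adjusted p = 2.94e-06), or 3.55-fold, the sixth smallest p among all tested genes. Without replicate 1 it was 1.503, with the call unchanged. That sample had 4594090 reads, the fewest at 26 months, and the highest summed level of microglia markers of its age, 2362 against 1502 to 2125 in the other 4. The part of depth and of microglia in its Serpina3n level was not tested.

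The RefSeq start sites used here, on GRCm38.p6, cover 6 of the 7 genes, all but A2m. The 250 bases before each were searched on both strands for 4 short motifs. These were the STAT site (TTC and GAA with any 3 bases between), the AP-1 site TGACTCA or TGAGTCA, the TATA box TATAAA and the CCAAT box, the last 2 chosen after the windows had been read. Neither STAT nor AP-1 letters occurred in any of the 7 windows of these genes, while 7.02% and 4.46% of all 32851 windows of this length hold them. TATA letters stand in 12.4% of windows and CCAAT letters in 33.8%. The windows of Vim and Serpina3n are shown as examples with and without such matches. In them capitals mark TATA and CCAAT matches, of either strand; Vim, at chr2:13574061-13574310 on the plus strand, has 1 TATA match starting 32 bases before the start site and 2 CCAAT matches. Serpina3n, at chr12:104406458-104406707 on the plus strand, has no match to any of the 4.
Vim: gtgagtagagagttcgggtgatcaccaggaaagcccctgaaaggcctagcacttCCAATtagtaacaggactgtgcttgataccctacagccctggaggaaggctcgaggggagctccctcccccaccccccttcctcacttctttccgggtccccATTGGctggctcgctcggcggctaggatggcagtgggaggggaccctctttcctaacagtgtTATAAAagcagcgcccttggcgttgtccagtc
Serpina3n: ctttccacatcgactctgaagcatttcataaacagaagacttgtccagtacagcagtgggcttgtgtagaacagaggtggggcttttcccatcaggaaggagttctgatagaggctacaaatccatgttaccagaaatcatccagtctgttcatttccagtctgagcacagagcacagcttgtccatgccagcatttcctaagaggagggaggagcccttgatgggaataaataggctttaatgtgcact
A match is a description of letters and shows no binding.

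A2m encodes alpha-2-macroglobulin, a large protein that traps proteases of many kinds, and lies on chromosome 6 from 121635376 to 121679227 on the plus strand. Its level was 17.5 ± 6.67 (n = 7) at 3 months, from 12.2 to 31.6 with a median of 15.1. The 26-month samples had 72.0, 52.4, 37.0, 60.2 and 56.3, a mean of 55.6 ± 12.7. The groups did not overlap, although replicate 4 of 3 months, at 31.6, stood well above its 6 peers. The log2 fold change was 1.65 (SE 0.29, limma adjusted p = 0.000575). At 20 months A2m already averaged 47.6 ± 21.2 (n = 7), from 22.3 to 87.0, and had risen by log2 1.35 (SE 0.26, limma adjusted p = 0.00862). At 5, 8 and 14 months it averaged 18.4 ± 6.31, 22.8 ± 8.54 and 24.1 ± 9.86.

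Cp encodes ceruloplasmin, a copper-carrying ferroxidase that astrocytes hold on their surface and that helps iron leave cells. It lies on chromosome 3 from 19957054 to 20009145 on the plus strand. At 3 months its level was 80.1 ± 11.3 (n = 7), from 72.8 to 103 with a median of 74.4. The 26-month samples had 141, 134, 107, 116 and 157, a mean of 131 ± 19.8. They did not overlap with the young samples, though replicate 3 of 26 months lay only a little above them. The log2 fold change was 0.70 (SE 0.17, limma adjusted p = 0.0325). Its age means formed an unbroken rise, through 87.7 ± 20.0 at 5 months, 96.4 ± 23.5 at 8 months, 101 ± 18.8 at 14 months and 130.0 ± 31.4 at 20 months, but no 2 neighbouring ages differed by more than 1 SD. The call was lost without replicate 1, 2, 4 or 5 of 26 months or replicate 1, 2, 3 or 5 of 3 months, with log2 values of 0.63 to 0.77 over all single samples left out. It was also lost without libraries under 5000000 reads (limma adjusted p = 0.179) and with no filter on low values (limma adjusted p = 0.056).

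Osmr encodes the receptor subunit that binds oncostatin M and pairs with gp130, the product of Il6st, to activate STAT3. It lies on chromosome 15 from 6813577 to 6874969 on the minus strand. Its level was 20.3 ± 4.32 (n = 7) at 3 months, from 13.4 to 26.1 with a median of 20.5. At 26 months the samples had 43.2, 35.4, 31.2, 31.4 and 52.3, a mean of 38.7 ± 9.02. No old sample fell into the young range. The log2 fold change was 0.90 (SE 0.22, limma adjusted p = 0.0341). Means were 22.4 ± 7.21, 21.7 ± 6.14 and 24.3 ± 4.25 at 5, 8 and 14 months and 37.4 ± 8.87 at 20 months. The call was lost without replicate 1, 2 or 5 of 26 months, or 3, 5 or 7 of 3 months, with log2 values of 0.78 to 0.97 over all single samples left out. It was also lost with no filter on low values (limma adjusted p = 0.0617) and with only the ages compared (limma adjusted p = 0.0935).

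S1pr3 encodes a receptor for the lipid messenger sphingosine 1-phosphate and lies on chromosome 13 from 51408639 to 51422797 on the plus strand. Its level was 44.5 ± 13.3 (n = 7) at 3 months, from 24.0 to 64.2 with a median of 41.5. The 26-month samples had 57.6, 41.5, 40.9, 55.0 and 55.5, a mean of 50.1 ± 8.19. All 5 lay inside the young range. The log2 difference was 0.21 (95% interval -0.24 to 0.66, limma adjusted p = 0.801), and the upper bound lies just below the 0.70 of Cp. Means at the 4 ages between were 42.1 to 47.9.

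The age means of the 5 rising members differed in course, but no difference in course between genes was tested. The share of the difference between the means of 3 and 26 months that was present at 20 months was 98.1% for Cp, 92.7% for Osmr, 79% for A2m, 68.4% for Vim and 22.5% for Serpina3n. The 26-month mean of Serpina3n includes replicate 1, at 447 against 104 to 193 in the others, which lowers its share. On the log2 scale Serpina3n differed from 3 months by 0.72 at 20 months and by 1.83 at 26 months, or 1.503 without replicate 1. For Vim, A2m and Osmr the means of 14 and 20 months were more than 1 SD apart, and no other neighbours in the order of the means were. In the direct comparison of 20 with 14 months limma called 0 members and 1 of all genes (0.00643%), with 4 members at an unadjusted p under 0.05 and 0 called in edgeR and DESeq2. The log2 differences there were 0.94 for A2m (95% interval 0.43 to 1.44), 0.58 for Osmr (0.20 to 0.97), 0.37 for Vim (0.13 to 0.62) and 0.36 for Cp (0.06 to 0.65). From 3 to 20 months, A2m and Vim rose (2 of 6, where 0.161% of tested genes were called higher and 0.0129% lower). Cp, at log2 0.67 (SE 0.16, limma adjusted p = 0.0507), and Osmr, at 0.84 (SE 0.20, limma adjusted p = 0.0611), fell just short of the threshold, and both passed in edgeR and DESeq2. Serpina3n had a log2 difference of 0.72 at 20 months (SE 0.22, limma adjusted p = 0.199). These comparisons all share the 3-month animals.

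Between 20 and 26 months Serpina3n differed by log2 1.10 (SE 0.24), the second smallest p among tested genes, but its limma adjusted p was 0.289. None of the 6 members passed limma here (0 of 15546 genes did, with 604 at an unadjusted p under 0.05, Serpina3n the 1 member among them). Serpina3n was the 1 member called by edgeR (adjusted p = 0.0419) and by DESeq2 (adjusted p = 0.00359). Without replicate 1 of 26 months its log2 difference was 0.78. The differences of the other 5 were 0.03 to 0.30, with Cp at 0.03 (95% interval -0.31 to 0.38). Against 14 months, Serpina3n rose by 1.44 (SE 0.23, limma adjusted p = 0.000336) and A2m by 1.24 (SE 0.28, limma adjusted p = 0.0313), where 0.167% of tested genes were called. The A2m call was lost without replicate 1, 2, 4 or 5 of 26 months. Vim differed by 0.56 (limma adjusted p = 0.0590) and passed in edgeR (adjusted p = 0.0348), in DESeq2 (adjusted p = 0.00956) and in limma without replicate 3 of 26 months (adjusted p = 0.02).

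Before 20 months no member passed. At 14, 8 and 5 months limma called 0 of the 6 against 3 months and 0 of all genes (661, 558 and 495 had an unadjusted p under 0.05, with 1, 0 and 0 members among them), and edgeR and DESeq2 called 0 members. The largest log2 differences at 14 months were 0.41 for A2m (95% interval -0.09 to 0.91), 0.39 for Serpina3n (-0.03 to 0.80) and 0.31 for Cp (0.01 to 0.61). With all 6 ages in a straight line over time, log2 levels rose per year by 0.88 (SE 0.12) for A2m, 0.83 (SE 0.11) for Serpina3n, 0.51 (SE 0.09) for Osmr, 0.42 (SE 0.06) for Vim and 0.38 (SE 0.07) for Cp. The limma adjusted p of these slopes ran from 3.56e-07 for Serpina3n to 0.000321 for Cp, and 1.3% of tested genes were called with a rising slope, 0.283% with a falling one and 1.58% in all. S1pr3 had a slope of 0.11 (SE 0.09, limma adjusted p = 0.601). The test of any difference among the ages called the same 5 members, against 0.482% of tested genes. The Cp call there (limma adjusted p = 0.0378) was lost in 4 of the 5 fits without 1 sample of 26 months. It was also lost in 5 of 7 such fits for 3 months and in 5 of 7 for 20 months. Osmr lost that call without replicate 5 of 26 months (limma adjusted p = 0.0582).

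**Figure D3:**
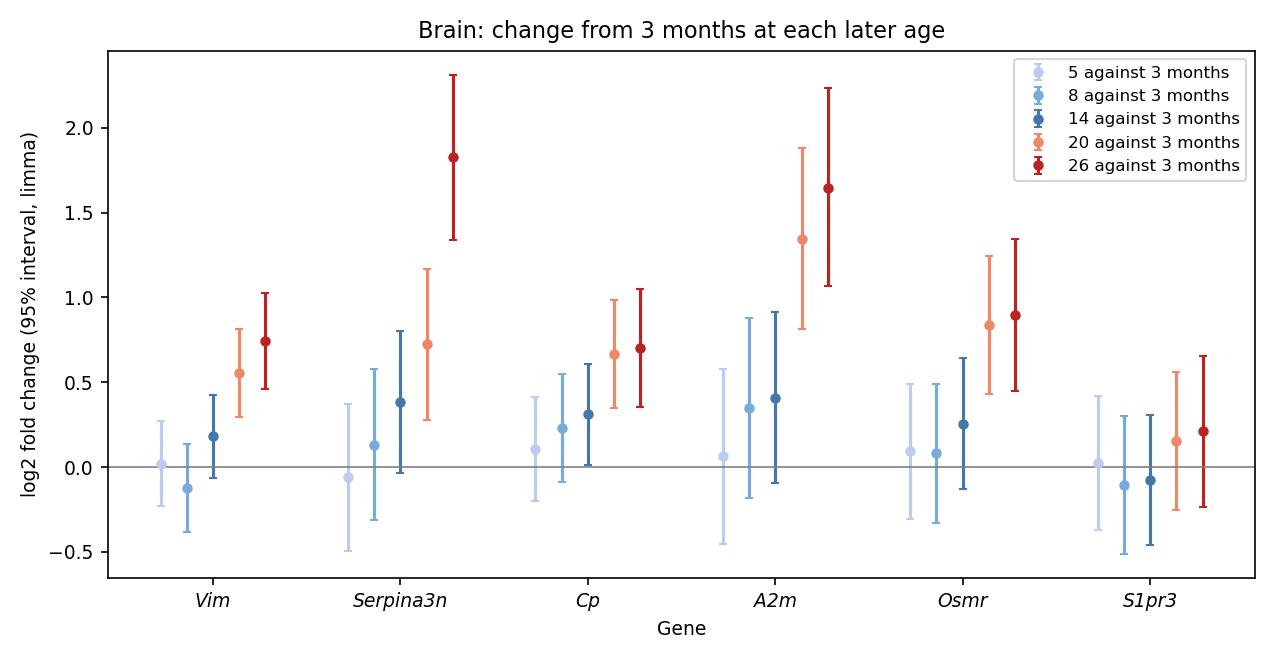
Log2 fold change from 3 months (y axis, points with 95% intervals from limma) for the 6 measured genes (x axis) at 5, 8, 14, 20 and 26 months in brain. The values of Cp, Osmr and A2m at 20 and 26 months lie close together, whereas Serpina3n goes from 0.72 to 1.83, and all ages share the 3-month samples.

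The 26-month animals differed from each other. Replicate 3 had the lowest value of its age for all 6 members, from 0.92 times the 3-month mean for S1pr3 to 2.12 times for A2m. Replicate 1 had the highest Serpina3n (8.64 times), A2m (4.12 times) and S1pr3 (1.295 times), replicate 4 the highest Vim (2.03 times) and replicate 5 the highest Cp (1.96 times) and Osmr (2.58 times). The coefficient of variation at 26 months was 65.9% for Serpina3n and 15.1 to 23.3% for the others, and at 3 months 21.9% for Serpina3n.

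**Figure D4:**
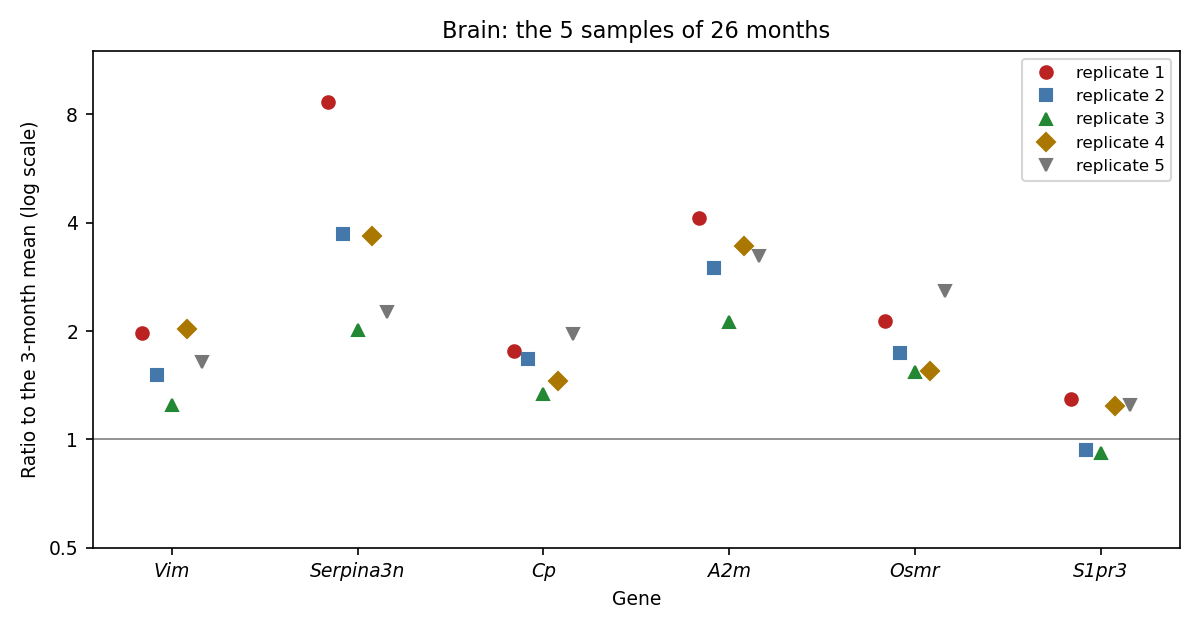
Level of the 6 measured genes (x axis) in each of the 5 brain samples of 26 months as a ratio to the 3-month mean (y axis, log scale), 1 symbol per sample. Replicate 3 is lowest for every gene, and the Serpina3n values reach from 2.02 to 8.64.

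Over the 43 brain samples the 15 pairs of members had Pearson correlations of 0.193 to 0.773 in log2 level, which include the shared rise with age. After the mean of each age was subtracted they were 0.009 to 0.514. Vim and A2m had the highest value both ways, 0.773 and 0.514, and A2m and Osmr the lowest within ages. These are descriptions over samples that differ in depth, with no test.

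The genes whose levels most resembled each member over the 43 samples were, for 3 of the 6, headed by C4b, a complement component. Its Pearson correlation was 0.848 with A2m, 0.829 with Serpina3n and 0.793 with Vim, and within ages 0.569, 0.527 and 0.468. Vim was next most like A2m and the class I histocompatibility gene H2-D1, and Serpina3n was next most like Plek, a protein kinase C substrate of blood and myeloid cells, and the lipid carrier Apod. A2m was followed by Apod and Vim. For Cp, the genes reported are the secreted glycoprotein Lgals3bp (0.729, and 0.508 within ages) and the glucose transporter Slc2a1 (0.726, and 0.628 within ages). Osmr was most like Cyth1 (0.696), then C4b, at 0.675 but 0.132 within ages, and Acer2. S1pr3 had lower values, with Ndor1 at 0.611, Kmt2b and Arap1.

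General astrocyte markers gave no call beside these genes. Of 14 astrocyte identity genes, among them the water channel Aqp4 and the glutamate transporter Slc1a2, 0 passed limma at 26 months, with 1 at an unadjusted p under 0.05 and 0 in edgeR and DESeq2. Their mean log2 level differed by 0.034 between 3 and 26 months. Relative to that mean, the members were higher at 26 months by 1.79 (Serpina3n), 1.61 (A2m), 0.86 (Osmr), 0.71 (Vim), 0.67 (Cp) and 0.18 (S1pr3). Of the 14, 7 had a log2 difference above 0, and the median was 0.009. Aqp4, 1 of those above 0, had 874 ± 144 at 3 months and 1073 ± 159 at 26 months (log2 0.30, SE 0.11, limma adjusted p = 0.303).

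Markers of other cells were read beside these values. Of 11 tested microglia genes C1qa (log2 0.87, SE 0.20, limma adjusted p = 0.0182) and C1qb (0.71, SE 0.16, limma adjusted p = 0.0137) had risen at 26 months, and all 11 had a log2 difference above 0. In limma 5 had an unadjusted p under 0.05, while edgeR called 2 and DESeq2 called 4. The sum of the microglia list was 1323 to 1946 at 3 months and 1502 to 2362 at 26 months, with P2ry12 listed at 0. Ptprc, the leukocyte gene of the blood list, rose by 1.22 (SE 0.15, limma adjusted p = 9.64e-07). Over all 6 ages the slope passed for 5 of the 11 microglia genes, all rising: C1qa, C1qb and C1qc, subunits of the first complement component, the signalling adaptor Tyrobp and the integrin Itgam, by 0.21 to 0.50 in log2 level per year (limma adjusted p = 1.27e-05 to 0.0290), where 1.3% of tested genes were called rising. At 26 months both C1q calls were lost without replicate 1 or 4 of 26 months, and that of C1qa also without replicate 6 of 3 months. Both were lost without libraries under 5000000 reads too (limma adjusted p = 0.0737 for C1qa and 0.154 for C1qb), and with only the ages compared. The part of microglia in the members' rise was not tested.

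Choroid plexus markers also varied. All 8 tested had a log2 difference above 0 at both 20 and 26 months, with medians of 0.63 and 0.41. By limma 0 passed at either age (5 and 1 at an unadjusted p under 0.05, and 1 and 0 in both edgeR and DESeq2). Their sum was 1365 to 2783 at 3 months, 1378.5 to 8397 at 20 months and 1901 to 3586 at 26 months, with Kcnj13 listed at 0. Replicate 4 of 20 months, with the sum of 8397, also had the highest Vim and Serpina3n of its age, 311 and 121. A2m, Cp and Osmr were highest in replicate 7 (87.0, 185 and 48.2), whose sum was 3289, and S1pr3 in replicate 5. Without replicate 4 the difference of Vim at 20 months was 0.48 (limma adjusted p = 0.143), and A2m alone stayed called. The same happened without replicate 2, 3 or 7 of 20 months. Endothelial and pericyte markers had a median log2 difference of 0.14 at 26 months, with 12 of 14 above 0. Limma called 0 of them, with 4 at an unadjusted p under 0.05 and 0 in edgeR and DESeq2. Oligodendrocyte, precursor, neuron, meningeal, ependymal, striatum, brain stem and olfactory bulb lists had 0 calls each at 26 months by limma, edgeR and DESeq2. Each had 0 to 4 genes at an unadjusted limma p under 0.05. Log2 differences were above 0 for 10 of 10 oligodendrocyte genes (median 0.18), 1 of 10 neuron genes (-0.15) and 0 of 8 striatum genes (-0.285). The counts were 3 of 5 for precursors, 4 of 9 for meningeal and 3 of 7 for ependymal genes. They were 4 of 4 for brain stem and 4 of 8 for olfactory bulb. The part of these cells and regions in the members' rise was not tested. The cerebellum gene Car8 was lower (log2 -0.56, limma adjusted p = 0.0284). The Car8 call was lost without libraries under 5000000 reads (limma adjusted p = 0.0575), with only the ages compared (limma adjusted p = 0.153) and without some single samples. By slope over the 6 ages, 3 of 10 oligodendrocyte genes rose (Mobp, Mag and Aspa, by 0.16 to 0.20 in log2 level per year, limma adjusted p = 0.00484 to 0.0372), as did Ptprc. Car8 and Penk, a gene of the striatum list, fell, and the marker lists not named here or for microglia had 0 called slopes in limma. The part of oligodendrocytes in the members' slopes was not tested.

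Reactive astrocyte genes outside the 7 members gave a mixed picture at 26 months. In a list of 13 pan-reactive genes that includes 6 of the members, 3 were listed at 0 (Gfap, Timp1 and Cxcl10), 9 were tested and 4 rose, all of them members. Of the 9 tested, 8 had a log2 difference above 0, and the gene that did not is not among those named here. Cd44, a hyaluronan receptor, had 66.5 ± 15.1 at 3 months and 97.7 ± 25.7 at 26 months (log2 0.55, limma adjusted p = 0.115). Aspg, an asparaginase gene, had a log2 difference of 0.86 (limma adjusted p = 0.255), and its slope over the 6 ages passed, at 0.59 per year (limma adjusted p = 0.00248). Lcn2, a secreted iron-trapping protein, was too low to be tested, at 0.809 ± 0.880 and 9.82 ± 12.5.

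In the list of genes linked to astrocytes in neuroinflammation 3 of 10 tested rose. C3, the central complement component, went from 5.62 ± 3.035 at 3 months to 29.1 ± 16.85 at 26 months (log2 2.102, SE 0.40, limma adjusted p = 0.00165). Its 3-month mean lay below the filter limit of 10, so it may have been tested only through older samples where it is high. Ggta1, which adds terminal galactose to glycans, rose by 0.99 (SE 0.18) and H2-D1 by 0.96 (SE 0.16), and 9 of the 10 had a difference above 0. H2-D1 was the 1 gene of this list called at 20 months, at log2 0.71 (limma adjusted p = 0.0140), a call lost without replicate 1 or 6 of 3 months. In the list linked to astrocytes in ischaemia 1 of 8 rose, Cd109, a membrane-anchored relative of A2m, by 1.06 (SE 0.24, limma adjusted p = 0.0181). The medians of the 3 lists were 0.70, 0.545 and 0.03. The Cd109 call was lost without replicate 1 of 26 months or replicate 3 of 3 months. It was also lost without libraries under 5000000 reads (limma adjusted p = 0.154) and with only the ages compared (limma adjusted p = 0.109).

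Around the single members, few pathway partners passed. Of 11 tested intermediate filaments and linkers Vim alone rose, and the median was -0.095. Nes, the nestin gene of progenitors and reactive astrocytes, differed by -0.10 and the neurofilament gene Nefm by -0.30 (limma adjusted p = 0.483). Of 16 tested genes of gp130 cytokine signalling, Osmr and Stat3 rose, Stat3 by 0.35 (SE 0.09, limma adjusted p = 0.0410), from 232 ± 15.2 to 295 ± 11.7. The Stat3 call was lost without any 1 of the 5 samples of 26 months or without replicate 1, 2, 3, 4 or 5 of 3 months. It was also lost without libraries under 5000000 reads (limma adjusted p = 0.137) and with only the ages compared (limma adjusted p = 0.138). Il6st differed by 0.20 (limma adjusted p = 0.402), the other receptor subunit Lifr by 0.06 and the feedback inhibitor Socs3 by 0.004. The ligand Osm was too low to be tested, at 1.59 ± 2.11 and 0.670 ± 0.674.

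Of 16 tested protease inhibitors 3 rose, Serpina3n, A2m and Cd109. The median was 0.11, and Pzp, a close relative of A2m, differed by -0.08. In iron and copper handling Cp was the 1 of 15 that rose, with the ferroxidase Heph at 0.04, the iron exporter Slc40a1 at -0.23 and the ferritin gene Fth1 at 0.08. Among 13 tested genes of sphingosine 1-phosphate signalling limma called 0, with 1 at an unadjusted p under 0.05 and 0 in edgeR and DESeq2. S1pr1, the main receptor in astrocytes and endothelium, differed by -0.11 and the oligodendrocyte receptor S1pr5 by 0.13.

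In spleen, an organ without astrocytes, the same 6 genes were measured in the same mice. Cp and Osmr had their highest means at 14 and 20 months. The comparisons at those ages were added after these levels had been seen, without leaving out single samples, and 5 and 8 months were not tested. Osmr had 145 ± 57.6 (n = 7) at 3 months, 235 ± 61.6 (n = 9) at 14 months, 343 ± 132 (n = 7) at 20 months and 180 ± 20.7 (n = 5) at 26 months. Cp had 623 ± 189, 1010 ± 149.9, 1075 ± 107 and 702 ± 198 at these ages. Against 3 months, Cp had risen at 14 months by log2 0.73 (SE 0.15, limma adjusted p = 0.0226), the 1 member called there, where 0.32% of tested genes were called (0.314% higher and 0.00616% lower). Osmr, at 0.72 (limma adjusted p = 0.0785), passed in DESeq2 but not in edgeR.

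At 20 months 3 of the 6 were called in spleen, where 10.7% of tested genes were (5.99% higher and 4.68% lower). Osmr rose by 1.22 (SE 0.21, limma adjusted p = 0.000256) and Cp by 0.83 (SE 0.16, limma adjusted p = 0.000825). S1pr3 fell, from 311 ± 83.6 to 204 ± 80.7, by log2 -0.66 (SE 0.21, limma adjusted p = 0.0385), a call not made by edgeR (adjusted p = 0.0540), or by limma with no filter on low values (adjusted p = 0.0639) or with only the ages compared (adjusted p = 0.133). These comparisons share the 3-month spleens.

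At 26 months limma called 0 of the 6 spleen values against 3 months, where 0.369% of 16243 tested genes were called, with 1 member at an unadjusted p under 0.05 and 0 in edgeR and DESeq2. A2m, the 1 member, had 7.32 ± 4.402 (n = 7) and 19.5 ± 10.9 (n = 5), a log2 difference of 1.35 (95% interval 0.35 to 2.36, limma adjusted p = 0.156). S1pr3 differed by -0.46 (95% interval -0.94 to 0.01) and Serpina3n by 0.37 (95% interval -0.32 to 1.06). Osmr, Vim and Cp differed by 0.38, 0.26 and 0.17. The difference between the tissues was not tested, and the tables were normalized separately.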

How the data were processed

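Total RNA of brain and spleen was made into TruSeq libraries from 1 ug of RNA each, per the labels. HISAT2 2.1.0, cutadapt, bcl2fastq 2.20, DESeq2, SAMtools, R 3.5.1 and the build GRCm38 are named, without roles, in the submitters' processing notes. The authors deposited normalized counts (a signal, not raw reads), and the read counter and annotation are not given in the sources used here. Each library's values were whole numbers of reads divided by 1 factor, in 100% of cases (tolerance 0.01 read), so reads per library were recovered for depth, for comparing libraries and for edgeR and DESeq2 as alternatives.

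Genes with a normalized count of at least 10 in at least 5 libraries were tested with limma 3.58.1 (trend, R 4.3.3) on log2(normalized count + 1), all ages in 1 model, 2-sided, with Benjamini-Hochberg adjustment over all genes tested, and called under 0.05. Fold changes are on that scale and understate changes of low genes. Alternatives were edgeR 4.0.16 (quasi-likelihood), DESeq2 1.42.0, pseudocounts, filters, scalings and samples left out. Libraries whose low counts varied by less than read sampling (ratio under 1) were averaged, which the plan allowed for. The labels do not say that samples of an age are from separate litters or days, so p-values measure the spread between these animals. The scripts were tested on simulated data.

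Members and lists were chosen with earlier results of these data known. Named genes are all members, for each list the called genes at 26 against 3 months (up to 6), and for each member the 3 genes with the highest Pearson correlation, leaving out predicted genes and pseudogenes; for Cp 1 of the 3 is not reported here. Further list genes named with their values (Cd44, Aspg, Lcn2, Aqp4, Nes, Nefm, Il6st, Lifr, Socs3, Osm, Pzp, Heph, Slc40a1, Fth1, S1pr1, S1pr5, C1qc, Tyrobp, Itgam, Mobp, Mag, Aspa and Penk) were chosen after their values were seen, and no alternatives were run for them. The spleen comparisons at 14 and 20 months were also added then. Of the table's symbols 99.5% were found in GENCODE M21. Promoters are from RefSeq (GRCm38.p6), with none used for A2m. Plots used matplotlib 3.10.9 (Python 3.11.15).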

Additional observations from a re-analysis of the deposited data

Results flagged for a closer look

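Among 72 groups of 4 to 10 samples (6 genes, without Gfap, in brain and spleen at 6 ages), 4 had a highest sample whose gap to the next was a large share of the whole range (Dixon's 95% limit), and chance marks about 1 in 20 groups. Serpina3n in brain at 26 months was 447 in replicate 1 and 104 to 193 in the other 4. A2m in brain at 3 months was 31.6 in replicate 4 and 12.2 to 19.1 in the other 6. Vim in spleen at 3 months was 3241 in replicate 5 and 1246 to 2007 in the other 6. A2m in spleen at 26 months was 38.6 in replicate 5 and 12.3 to 17.8 in the other 4.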

How the results depend on the processing

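Over all alternatives, 1395 of 1475 recomputed member values kept their side of the threshold, 57 lost a call and 23 gained one. Of values called in either fit 0 reversed. Some small uncalled differences did change sign, such as Serpina3n at 5 against 3 months (log2 -0.1498 to 0.0087 without single samples of 3 months). Serpina3n, A2m and Vim stayed called at 26 against 3 months under every alternative run (log2 1.503 to 2.03, 1.45 to 1.80 and 0.62 to 0.85). Members called at 26 against 3 months (5) were 3 with no filter on low values, and 3 to 5 with 1 sample left out. At 20 against 3 months (2) they were 4 in edgeR, 4 in DESeq2 and 4 with a pseudocount of 5, 1 with no filter, and 1 to 3 with 1 sample left out. The 20-month samples were left out in turn only after their values had been seen. At 26 against 20 months (0) edgeR and DESeq2 each called 1. At 26 against 14 months (2) there was 1 with no filter, with only the ages compared, and without libraries under 5000000 reads, 3 each in edgeR, DESeq2, a pseudocount of 5, quantile normalization and near-identical libraries counted separately (Vim added), and 1 to 3 with 1 sample left out. In spleen at 14 months (1) DESeq2 called 2. The S1pr3 call in spleen at 20 months was lost in edgeR, with no filter and with only the ages compared. For any age difference (5) the range was 3 to 5 with 1 sample left out. Cp lost this call without most single samples, without libraries under 5000000 reads (limma adjusted p = 0.157) and with no filter (limma adjusted p = 0.0745). The cause of these shifts was not tested.

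Genes called at 26 against 3 months (103) were 167 in DESeq2, 68 with a filter of 50, 53 with only the ages compared and 67 without replicate 1 of 26 months. At 20 months (27) DESeq2 called 74. At 26 against 14 months (26) there were 58 in DESeq2, 14 with only the ages compared and 10 without shallow libraries. In spleen (60) edgeR called 707, DESeq2 896 and the fit of the ages compared 0, and 0 to 1789 were called with 1 sample left out at 26 months. At 20 months in spleen (1733) 875 were called with only the ages compared, and at 14 months (52) 246 in DESeq2, 20 with no filter and 119 with only the ages compared. For any age difference (75) there were 174 in DESeq2 and 44 with a filter of 50, and for the slope (246) 160 with that filter. DESeq2 was not run for the slope. Between ages, no paired analysis was possible because the labels give no replicate numbers and each mouse has 1 brain at 1 age. Animal codes in the titles do link each brain to the spleen of the same mouse. Brain and spleen were not compared in pairs. At 3 months A2m rests on 11 to 40 reads and Osmr on 14 to 29 reads a sample, so counting error adds to their spread.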
